A study of Mus musculus with 32 samples.

Results

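The data describe 8 genes of GABA and glutamate synthesis and transport in blood and cerebellum of Fmr1-KO and Tsc2+/- mice. The members were Gad1, Gad2, Slc32a1, Abat, Slc17a6, Slc17a7, Glul and Slc1a2, and all 8 were found on the array. They were chosen by gene symbol alone. A probe set (the array's group of probes for a transcript) was taken as a member where its only annotated symbol was one of these names, which gave 9 of the 35556 probe sets. For Glul, which had more than 1 probe set, the one with the highest mean log2 intensity over all 32 arrays was used, so that 8 probe sets stand for the 8 genes.

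Total RNA of whole blood and of cerebellum from the same mouse was hybridised to Affymetrix Mouse Gene ST 1.0 arrays, 1 array for each mouse and tissue. The Fmr1 experiment held 5 Fmr1-KO mice, which lack the gene mutated in fragile X syndrome, and 5 WT mice, all on a congenic C57BL/6 background. The Tsc2 experiment held 3 Tsc2+/- mice, with 1 working copy of a gene mutated in tuberous sclerosis, and 3 WT mice on a mixed 129/SvJae-C57BL/6J background. All mice were 8 to 10 weeks old and, by the study's methods, male. The mutations were carried in every tissue, and the WT mice of each experiment were the controls for its mutants. Because each strain background belongs to 1 experiment, strain and experiment cannot be told apart.

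GABA is the main inhibitory and glutamate the main excitatory transmitter of the brain, and the cerebellum contains very many neurons of both kinds. Purkinje cells, Golgi cells, stellate cells and basket cells release GABA, whereas granule cells, climbing fibres, mossy fibres and many neurons of the cerebellar nuclei release glutamate. GABA is made from glutamate, loaded into vesicles, taken up again and broken down, and astrocytes clear glutamate and turn it into glutamine that neurons use again.

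The RefSeq table of the GRCm38.p6 assembly held 8 promoters for 7 of the 8 members, all on the plus strand and each spanning 250 bases before to 50 bases after a transcript start. The 150 bases directly before the start are shown for Glul, the member that was bright in both tissues, and for Gad1 and Slc17a7, which represent GABA synthesis and glutamate release. Capitals mark CG pairs.
Glul: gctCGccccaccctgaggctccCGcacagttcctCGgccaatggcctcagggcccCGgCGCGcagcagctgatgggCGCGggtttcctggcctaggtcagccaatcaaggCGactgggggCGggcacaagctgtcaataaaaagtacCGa
Gad1: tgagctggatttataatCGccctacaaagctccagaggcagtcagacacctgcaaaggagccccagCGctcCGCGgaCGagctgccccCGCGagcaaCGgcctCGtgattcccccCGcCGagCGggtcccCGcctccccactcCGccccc
Slc17a7: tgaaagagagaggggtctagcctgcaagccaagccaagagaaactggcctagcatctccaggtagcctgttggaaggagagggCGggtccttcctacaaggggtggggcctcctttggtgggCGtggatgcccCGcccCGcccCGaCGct

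In that assembly Gad1 lies at chr2:70561303-70602014 (probe set 10472707), Gad2 at chr2:22621015-22693877 (10469672), Slc32a1 at chr2:158607260-158615747 (10478124) and Slc1a2 at chr2:102658239-102790784 (10474141). Slc17a6 lies at chr7:51621830-51671126 (10553501), Slc17a7 at chr7:45163921-45176139 (10552857), Abat at chr16:8513429-8621568 (10433445) and Glul at chr1:153899929-153909723 (10350753). The Glul stretch lies at chr1:153899779-153899928 and the Slc17a7 stretch at chr7:45163771-45163920, both directly before the annotated gene. The Gad1 stretch at chr2:70561979-70562128 lies inside the span of the annotated gene, before one of its transcript starts. Over the whole 300 bases, the promoters of Glul and Slc32a1 held 17 CG pairs each, that of Gad1 21, that of Gad2 14 and that of Slc17a7 13, against a median of 7 over the 32851 promoters of the table. The promoters of Slc17a6 held 8 and 3 CG pairs, and that of Slc1a2 held 1, fewer than most promoters. The GC box GGGCGG, read on both strands, was found in 4 of the 8 promoters (Gad1, Slc17a7, Glul and 1 of the promoters of Slc17a6) and in 35.7% of all promoters. CCAAT stood in the promoters of Gad2 and Glul and in 37.4% of all promoters, and TATAAA stood in that of Gad1 and in 13.6% of all. None of these letters separates Glul from the members that were dim in blood.

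Of the targeted genes, Fmr1 followed the labels, whereas Tsc2 was lower in Tsc2+/- mice without passing the adjusted test. Fmr1 was lower in Fmr1-KO than in WT mice, with a log2 difference of -1.53 (SE 0.16, adjusted p = 0.00035, limma over both tissues). That fit counts both arrays of a mouse as independent. In each tissue alone the Fmr1 values of the groups did not overlap. The log2 difference was -1.3 in blood (limma adjusted p = 0.92) and -1.77 in cerebellum (limma adjusted p = 0.15). So even the targeted gene did not pass the adjusted test within a tissue. Tsc2 in Tsc2+/- cerebellum was 0.72 times its WT level without passing the adjusted test (limma adjusted p = 0.93). In Tsc2+/- blood it was 0.87 times its WT level, with overlapping groups, and did not pass either. The labels give female mice and the methods male mice, and Eif2s3y, Kdm5d and Uty, which lie on the Y chromosome, had intensities from 226 to 1452 on every array while Xist did not exceed 106. This is the pattern of male mice, so the sex in the labels appears to be wrong. The tissue labels held: Pcp2 (Purkinje cells) and Gabra6 (granule cells) were above background on all 16 cerebellum arrays and on none of the blood arrays, and Ptprc (leukocytes) was above it on all 16 blood arrays and on no cerebellum array. The cerebellum array of Fmr1-KO mouse 1 stood apart, with a median of 178 over the olfactory receptor probe sets against 45.6 to 92.8 on the other cerebellum arrays and a correlation of 0.85 with its group against 0.92 to 0.96. Group values of Fmr1-KO cerebellum are therefore given with and without it, a choice made after seeing the data.

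In cerebellum, 7 of the 8 genes were above background on every array, and in blood only Glul was. Background was set on each array as the 95th percentile of the 1035 probe sets of olfactory receptor genes, which serve the sense of smell and are not known for expression in either tissue. This level ran from 165 to 276 on the blood arrays and from 137 to 271 on the cerebellum arrays other than that of Fmr1-KO mouse 1, where it was 577. In bulk tissue, fewer cells of a type and less RNA per cell cannot be told apart, and this holds for every difference below.

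**Figure D1:**
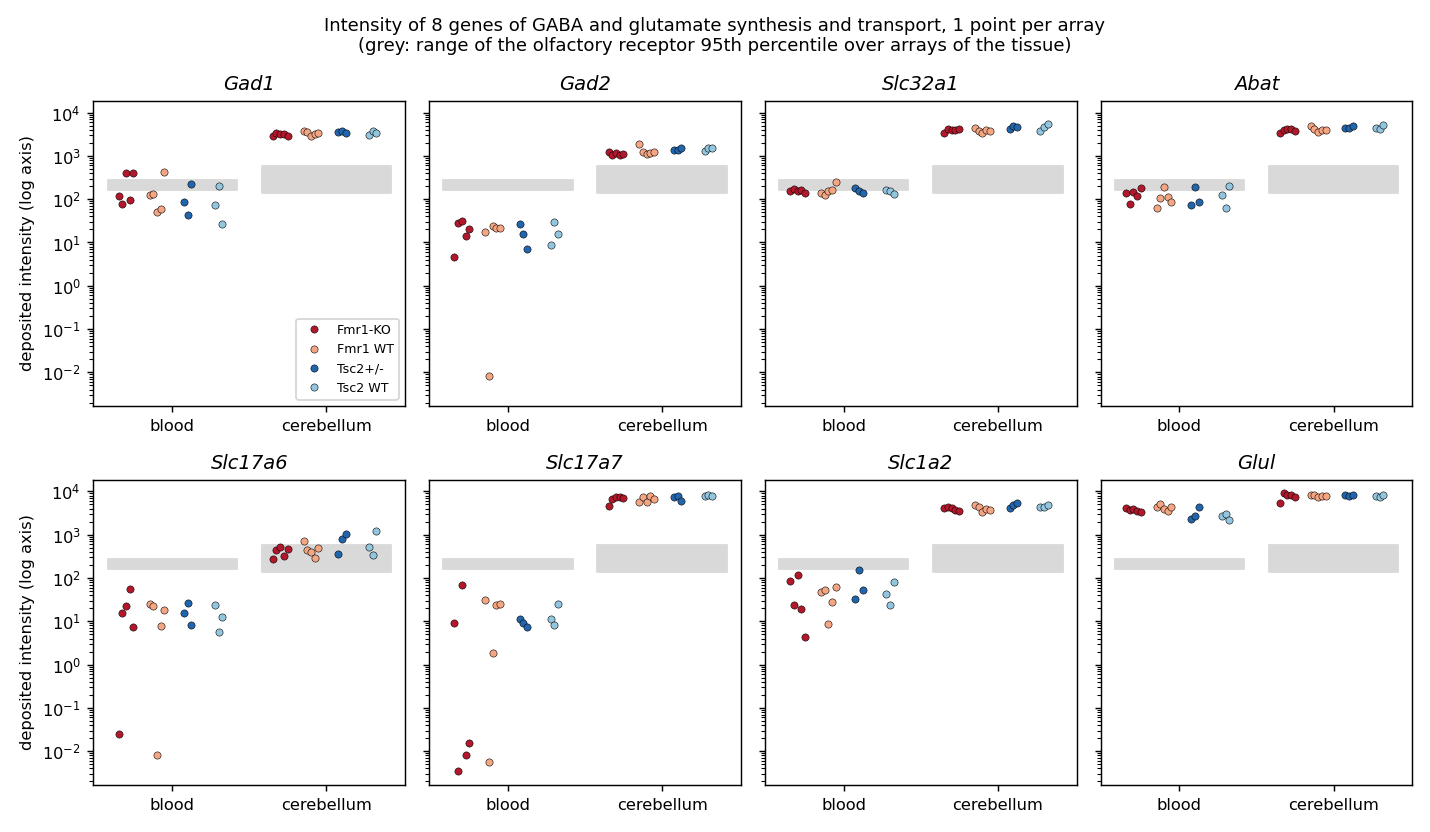
Deposited intensity (log axis) of each of the 8 genes on each of the 32 arrays, by tissue and group, with 1 point per array. The grey bands span the 95th percentile of the olfactory receptor probe sets over the arrays of the tissue. Glul lies above the band on all 16 blood arrays, and the others lie mostly within or below it in blood and above it in cerebellum.

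Among the genes of GABA synthesis, Gad1 encodes the glutamate decarboxylase that supplies most of the GABA of the cell, and Gad2 encodes the form associated with nerve terminals and vesicles. In cerebellum Gad1 ranged from 2842 to 3848 with a median of 3311, and Gad2 from 1043 to 1917 with a median of 1210. In blood Gad2 did not exceed 31.9 and was below background on all 16 arrays. In blood Gad1 had a median of 107, and it was above background on 5 of the 16 arrays. Those arrays were Fmr1-KO mouse 3 with 399, Fmr1-KO mouse 5 with 400.4, Fmr1 WT mouse 5 with 414, Tsc2+/- mouse 3 with 219 and Tsc2 WT mouse 2 with 199.5. They came from all 4 groups, and the lowest cerebellum value of Gad1 was still far above the highest blood value.

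Against the background level, the mean of Gad2 in cerebellum was at least 5.37-fold higher in Fmr1-KO mice, at least 6.29-fold higher in Fmr1 WT mice, at least 7.75-fold higher in Tsc2+/- mice and at least 7.81-fold higher in Tsc2 WT mice. These bounds set the mean log2 value in cerebellum against the mean over the blood arrays of the background level or the own value, whichever was higher. For Gad1, which 2 blood arrays of Fmr1-KO mice and 1 of each other group measured above background, the same bounds were at least 11.5-fold in Fmr1-KO, 14.96-fold in Fmr1 WT, 17.7-fold in Tsc2+/- and 17.5-fold in Tsc2 WT mice. Without the array that stood apart, the Fmr1-KO bounds were 5.26-fold for Gad2 and 11.7-fold for Gad1.

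Slc32a1 encodes VGAT, the transporter that loads GABA and glycine into synaptic vesicles. Its cerebellum values ran from 3430 to 5307 with a median of 4061, and its blood values from 123 to 254.5, below background on all 16 blood arrays. Cerebellum was at least 18.7-fold higher in Fmr1-KO, 18.9-fold in Fmr1 WT, 24.9-fold in Tsc2+/- and 25.1-fold in Tsc2 WT mice. Abat encodes GABA transaminase, the mitochondrial enzyme that breaks GABA down. It ran from 3400 to 5124 in cerebellum with a median of 4146. In blood it ran from 62.5 to 197, and 2 of the 16 arrays, both from WT mice, were above background. The bound for Abat was at least 18.5-fold in Fmr1-KO and at least 25.2-fold in Tsc2+/- mice. In the WT groups, with 1 blood array each above background, it was at least 19.8-fold in the Fmr1 and at least 24.7-fold in the Tsc2 experiment. Without the array that stood apart, the Fmr1-KO bounds were 19.3-fold for Slc32a1 and 19.1-fold for Abat.

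Slc17a7 (VGLUT1) and Slc17a6 (VGLUT2) load glutamate into vesicles, and granule cells are the main source of the first in cerebellum. Slc17a7 ran from 4537 to 8212 in cerebellum with a median of 7328, and its lowest value was that of the array that stood apart. In blood Slc17a7 had a median of 8.99 and fell as low as 0.0035, below background on all 16 arrays, so cerebellum was at least 31.5-fold higher in Fmr1-KO, 32.1-fold in Fmr1 WT, 39.2-fold in Tsc2+/- and 44.0-fold in Tsc2 WT mice. Slc17a6 in cerebellum ran from 281 to 1192 with a median of 458. It was above background on 15 of the 16 cerebellum arrays, the exception being that of Fmr1-KO mouse 1 with 281. Its cerebellum level was at least 1.90-fold the blood level in Fmr1-KO, 2.18-fold in Fmr1 WT, 3.67-fold in Tsc2+/- and 3.30-fold in Tsc2 WT mice. The Fmr1-KO bound of Slc17a6 includes the 281, which is below the background of its own array, and without that array the Fmr1-KO bounds were 2.07-fold for Slc17a6 and 34.5-fold for Slc17a7.

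Slc1a2 encodes GLT-1, a glutamate transporter of astrocytes, and Glul encodes glutamine synthetase, which astrocytes use to turn the captured glutamate into glutamine. Slc1a2 ran from 3419 to 5290 in cerebellum with a median of 4259 and did not exceed 157 in blood, below background on all 16 blood arrays. Cerebellum was at least 19.2-fold higher in Fmr1-KO and at least 19.7-fold higher in Fmr1 WT mice. The bound was at least 26.2-fold in Tsc2+/- and at least 24.8-fold in Tsc2 WT mice, and 19.1-fold in Fmr1-KO mice without the array that stood apart.

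Glul differed from the other members in that both tissues carried clear signal. Its blood values were 4220, 3764, 3901, 3476 and 3341 in Fmr1-KO mice 1 to 5 and 4378, 5204, 3849, 3588 and 4263 in Fmr1 WT mice 1 to 5. In the Tsc2 experiment they were 2255, 2728 and 4311 in Tsc2+/- mice 1 to 3 and 2721, 3008 and 2227 in Tsc2 WT mice 1 to 3. All but 1 of the 6 blood values of the Tsc2 experiment were below all 10 of the Fmr1 experiment, the exception being Tsc2+/- mouse 3. In cerebellum Glul ran from 5455 to 8951 with a median of 8027, and the lowest value again came from the array that stood apart. Glul was higher in cerebellum than in blood in 16 of 16 mice, by log2 differences of 0.37 in Fmr1-KO mouse 1 to 1.91 in Tsc2 WT mouse 3. In the group means cerebellum was 2.02 times blood in Fmr1-KO (2.18 times without the cerebellum array of mouse 1), 1.87 times in Fmr1 WT, 2.73 times in Tsc2+/- and 3.00 times in Tsc2 WT mice.

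**Figure D2:**
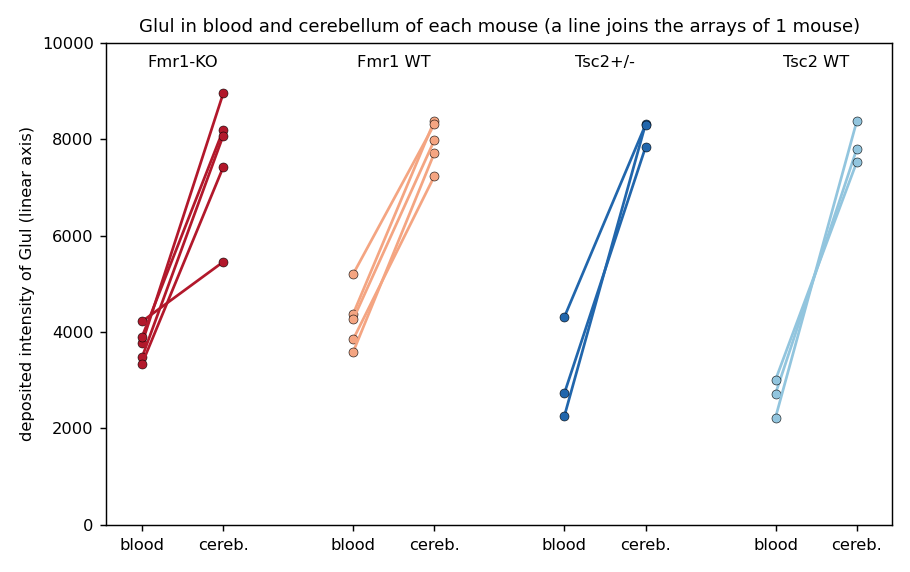
Deposited intensity of Glul (linear axis) in blood and cerebellum of each of the 16 mice, with a line joining the arrays of a mouse. All 16 lines rise, and the blood values of the Tsc2 experiment start lower, apart from Tsc2+/- mouse 3 at 4311.

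All 8 genes were higher in cerebellum than in blood in both experiments (limma with tissue and genotype as terms, adjusted over all 35556 probe sets). In the Fmr1 experiment 8 of 8 passed at an adjusted p under 0.05, where 51.8% of all probe sets were called higher in cerebellum, and the adjusted p ran from 3.8e-18 for Slc32a1 to 0.00031 for Slc17a6. In the Tsc2 experiment 8 of 8 passed, where 31% of all probe sets were called higher, with an adjusted p from 3e-11 to 3.9e-06. The blood and cerebellum values did not overlap for any of the 8 probe sets used. Among all probe sets, 27.6% were higher without overlap in the Fmr1 experiment and 23.6% in that of Tsc2. The second Glul probe set did overlap in the Fmr1 experiment, where blood reached 5045 and cerebellum fell to 4949. Its log2 difference was 0.69 there and 1.58 in the Tsc2 experiment, where its values did not overlap. The median log2 difference of the 8 genes was 5.86 in the Fmr1 experiment, beside 0.52 over all probe sets. In the Tsc2 experiment it was 5.47, beside 0.032 over all probe sets, and with arrays centred or quantile normalized within a tissue the median of all probe sets lay between 0.25 and 0.39. These medians rest on blood values near the lower end of the scale, so the bounds above describe the sizes better. For Glul, measured in both tissues, the log2 difference was 0.96 (SE 0.09, adjusted p = 1.1e-08; 1.02 without Fmr1-KO mouse 1) in the Fmr1 experiment and 1.52 (SE 0.15, adjusted p = 3.9e-06) in the Tsc2 experiment.

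The comparison of mutant and WT cerebellum asked whether either mutation changed these genes in brain. None of the 8 passed the test, and the values of mutant and WT mice overlapped for each of them. Gad2 gave the largest difference in the Fmr1 experiment. Its cerebellum values were 1213, 1067, 1167, 1043 and 1114 in Fmr1-KO mice 1 to 5 and 1917, 1202, 1127, 1156 and 1206 in Fmr1 WT mice 1 to 5, so that WT mouse 1 lay far above all others and the remaining values were interleaved. The log2 difference of Gad2 was -0.21 (SE 0.15, 95% interval -0.55 to 0.13, limma adjusted p = 1.0, exact permutation p = 0.12), and without Fmr1 WT mouse 1 it was -0.067. Of the other members in that comparison, 1 had a difference above 0 and 6 below 0, from -0.18 for Slc17a6 (95% interval -0.72 to 0.37) to 0.0082 for Slc32a1 (-0.22 to 0.24). The difference of Slc17a6 was also set largely by Fmr1 WT mouse 1, without which it was -0.012.

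Gad1 in Fmr1-KO cerebellum had a log2 difference of -0.10 (95% interval -0.34 to 0.14; -0.049 without Fmr1 WT mouse 1), Abat one of -0.083 (-0.34 to 0.18) and Glul one of -0.074 (-0.38 to 0.23). Slc1a2 and Slc17a7 lay closer to 0, at -0.013 (-0.28 to 0.26) and -0.0059 (-0.38 to 0.37). Without the array of Fmr1-KO mouse 1, the difference was 0.13 for Slc17a7, 0.041 for Glul, -0.053 for Slc17a6, 0.054 for Slc32a1, -0.037 for Abat, -0.067 for Gad1, -0.24 for Gad2 and -0.023 for Slc1a2, and none passed. The intervals leave room for changes of the order of the values they span, so they do not show that the genotypes were alike.

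**Figure D3:**
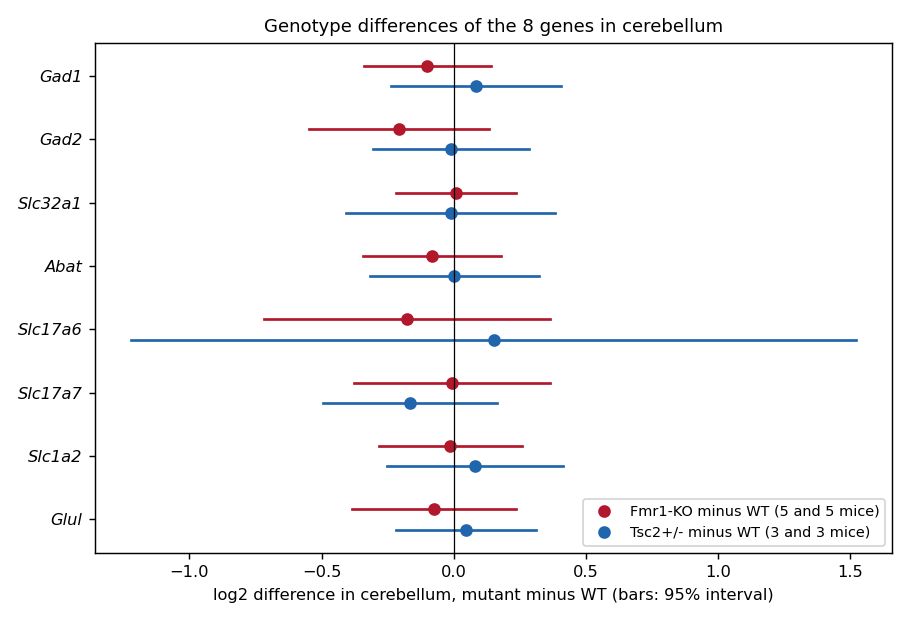
Log2 difference in cerebellum, mutant minus WT, for each of the 8 genes, with bars for the 95% interval of the limma fit. All 16 intervals include 0, and the widest is that of Slc17a6 in the Tsc2 experiment, from -1.22 to 1.52.

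In Tsc2+/- cerebellum the differences from WT ran from -0.17 for Slc17a7 to 0.15 for Slc17a6 on the log2 scale. Slc17a7 was 7320, 7993 and 6141 in Tsc2+/- mice 1 to 3 and 7829, 8212 and 7879 in Tsc2 WT mice 1 to 3, so that mouse 2 of the mutants lay among the WT values and the others below them. Its log2 difference was -0.17 (SE 0.14, 95% interval -0.49 to 0.16, limma adjusted p = 0.93, exact permutation p = 0.30), and without Tsc2+/- mouse 3 it was -0.060. The intervals of Gad1 (-0.24 to 0.41), Gad2 (-0.31 to 0.28), Slc32a1 (-0.41 to 0.38), Abat (-0.32 to 0.32), Glul (-0.22 to 0.31) and Slc1a2 (-0.25 to 0.41) all included 0. With 3 mice against 3, the exact test cannot go below 0.1.

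Counts over the 8 genes can be read against all probe sets. In Fmr1-KO cerebellum 0 of 8 passed at an adjusted p under 0.05 (limma, 0% of all probe sets), 0 at an unadjusted p under 0.01 (0.197% of all) and 0 at an unadjusted p under 0.05 (1.66% of all), and 0 had groups that did not overlap (0.357% of all). In Tsc2+/- cerebellum 0 of 8 passed at an adjusted p under 0.05 (limma, 0.0253% of all), 0 at an unadjusted p under 0.01 (1.12% of all) and 0 at an unadjusted p under 0.05 (4.94% of all), and 0 had groups that did not overlap (10.3% of all). The methods' t-test on the linear intensities called 0 of 8 in either comparison. The median log2 difference of the members was -0.079 in Fmr1-KO and 0.024 in Tsc2+/- cerebellum, beside 0.017 and -0.021 over all probe sets.

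In blood, only Glul could be compared between genotypes on every array, since the other 7 genes lay at or below background on most blood arrays and no fold is given for them. Glul was 3740 ± 348 (SD, n = 5) in Fmr1-KO and 4256 ± 618 (SD, n = 5) in Fmr1 WT blood, and the values of the groups overlapped. The log2 difference of Glul was -0.18 (SE 0.12, 95% interval -0.45 to 0.09, limma adjusted p = 0.96, exact permutation p = 0.14). In the Tsc2 experiment Glul was 3098 ± 1077 (SD, n = 3) in Tsc2+/- and 2652 ± 395 (SD, n = 3) in WT blood, with a log2 difference of 0.18 (SE 0.28, 95% interval -0.52 to 0.88, limma adjusted p = 1.0, exact permutation p = 0.60). That mean depended on Tsc2+/- mouse 3, and without it the log2 difference was -0.085. The second Glul probe set gave differences of the same sign, -0.092 in the Fmr1 and 0.085 in the Tsc2 experiment.

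Counts in blood bear on Glul alone, since the values of the other 7 genes there lie mostly below background and say nothing about a difference. In Fmr1-KO blood Glul did not pass at an adjusted p under 0.05 (limma, 0.00844% of all probe sets), at an unadjusted p under 0.01 (0.582%) or at an unadjusted p under 0.05 (3.5%), and its groups overlapped, whereas those of 0.562% of all probe sets did not. In Tsc2+/- blood Glul likewise passed none of these, beside 0% of all probe sets at an adjusted p under 0.05 (limma), 0.298% at an unadjusted p under 0.01, 2.14% at an unadjusted p under 0.05 and 6.38% with groups that did not overlap. In the fits over both tissues Glul had a log2 difference of -0.13 in Fmr1-KO and 0.11 in Tsc2+/- mice, with limma adjusted p of 0.98 and 1.0. The share called there at an adjusted p under 0.05 was 0.00281% of all probe sets for Fmr1-KO and 0% for Tsc2+/- mice, and 2.73% and 2.86% had an unadjusted p under 0.05.

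Whether a genotype difference itself changed between tissues or between the models was tested by the interaction term. By model in cerebellum, 0 of 8 genes passed at an adjusted p under 0.05 (limma, 0.00844% of all probe sets) and 0 at an unadjusted p under 0.05 (2.23%). The largest term there was that of Slc17a6, where the Tsc2+/- difference exceeded the Fmr1-KO difference by 0.33 on the log2 scale (SE 0.58, limma adjusted p = 1.0). The terms that involve blood were read for Glul alone. By model in blood, Glul gave 0.36 (SE 0.27, limma adjusted p = 1.0), Tsc2+/- minus WT less Fmr1-KO minus WT, where 0.00281% of all probe sets passed at an adjusted and 3.63% at an unadjusted p under 0.05. By tissue, cerebellum less blood, Glul gave 0.11 in the Fmr1 experiment (limma adjusted p = 0.99, with 0.00844% of all probe sets called and 3.28% at an unadjusted p under 0.05). For Tsc2+/- mice the term was -0.13 (limma adjusted p = 1.0, with 0.00562% called and 3.49% at an unadjusted p under 0.05).

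The WT mice of both experiments were compared because their strain backgrounds differ, and Glul in blood gave the clearest difference of any member outside the tissue comparison. It was 2652 ± 395 (SD, n = 3) in Tsc2 WT and 4256 ± 618 (SD, n = 5) in Fmr1 WT blood, and the values of the groups, printed above for each mouse, did not overlap. The log2 difference was -0.68 (SE 0.17, 95% interval -1.08 to -0.29, a ratio of 0.47 to 0.82) with an unadjusted p of 0.0044, and its limma adjusted p of 0.071 missed the threshold. The exact permutation p of 0.018 is the smallest that 5 mice against 3 allow. The second Glul probe set gave -0.86 (limma adjusted p = 0.068). Glul passed at an adjusted p under 0.05 when 16 was added before taking log2 (0.049), when dim probe sets were left out (0.036), with array weights (0.026) and in a fit of all 32 arrays (0.0039). Those fits called 2683, 4888, 10738 and 8602 probe sets, where 47 were called otherwise. Glul did not pass under any of the others run, where the adjusted p ran up to 0.40.

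In that comparison, 0.132% of all probe sets passed at an adjusted p under 0.05 (limma), 12% at an unadjusted p under 0.01 and 29% at an unadjusted p under 0.05, and 24% had groups that did not overlap, so that many probe sets differed as Glul did. Marker genes of blood cells moved with this difference. The summed intensity of 8 leukocyte markers (such as Ptprc and Cd3e) was 44110 to 52170 in Tsc2 WT and 29100 to 37470 in Fmr1 WT blood, and that of 4 erythroid markers (such as Alas2) was 24300 to 32430 and 36560 to 46370. The sum of 4 platelet markers ran from 1633 to 32840 in Tsc2 WT and from 36210 to 39410 in Fmr1 WT blood. All 8 leukocyte and all 4 erythroid markers were above background on every WT blood array, as were the platelet markers in Fmr1 WT mice, of which 3 of 4 were in Tsc2 WT mice. Their part in the result was not tested.

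In cerebellum 0 of 8 genes passed between the WT groups at an adjusted p under 0.05 (limma, 0.00562% of all probe sets), 0 at an unadjusted p under 0.01 (1.29%) and 0 at an unadjusted p under 0.05 (8.19%), and 0 had groups that did not overlap (4.98%). Glul was nearly equal there, at 7895 ± 432 (SD, n = 3) in Tsc2 WT and 7924 ± 470 (SD, n = 5) in Fmr1 WT mice, with a 95% interval of the log2 difference from -0.23 to 0.22. Slc17a7 was 7973 ± 208 (SD, n = 3) in Tsc2 WT and 6656 ± 1009 (SD, n = 5) in Fmr1 WT mice, a log2 difference of 0.27 (95% interval -0.05 to 0.59, limma adjusted p = 0.56, exact permutation p = 0.089). Over both tissues Glul, the gene measured in both, did not pass at an adjusted p under 0.05 (limma, 0.0478% of all probe sets) but had an unadjusted p under 0.05, as did 23.5% of all probe sets.

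In the order of the group means, neighbouring groups overlapped for every gene in both tissues, except for 1 of the 3 neighbouring pairs of Slc32a1 in cerebellum. Its order there was Tsc2 WT, Tsc2+/-, Fmr1-KO and Fmr1 WT. Slc32a1 was 4209, 4789 and 4561 in Tsc2+/- mice 1 to 3 and 3438, 4110, 4022, 3894 and 4099 in Fmr1-KO mice 1 to 5, and these were the groups that did not overlap. They differ in genotype, strain and experiment, and neighbours were set by sorting on the same means. The share of all probe sets without overlap was not computed for this pair. Between the WT cerebella of the same experiments it was 4.98%. The means of Gad2, Abat, Slc17a6, Slc17a7 and Slc1a2 were also higher in both groups of the Tsc2 experiment than in both groups of the Fmr1 experiment, with overlapping values between neighbours. For Slc17a7 this did not hold without the array that stood apart, when the Fmr1-KO mean was 7210 beside 7151 in Tsc2+/- mice. All 7 markers of cerebellar GABAergic interneurons were above background on every cerebellum array. Their summed intensity was 15260 to 18570 in Tsc2+/-, 14500 to 17380 in Tsc2 WT, 10200 to 15440 in Fmr1-KO and 13500 to 15760 in Fmr1 WT cerebellum. Without the array that stood apart, the Fmr1-KO range was 13430 to 15440. The mean sums of oligodendrocyte, forebrain and microglia markers were also higher in both groups of the Tsc2 experiment than in both of the Fmr1 experiment. Those of Purkinje cells (32880 in Tsc2+/-, 31660 in Tsc2 WT, 32820 in Fmr1-KO, 33900 in Fmr1 WT) and granule cells were not. Neither were those of astrocytes with Bergmann glia, of cerebellar nuclei with brainstem or of choroid plexus. Of the 5 microglia markers, only 0 in Fmr1-KO and 2 in each other group were above background on every cerebellum array. Their mean sums were close, at 1042 in Tsc2+/-, 1053 in Tsc2 WT, 978 in Fmr1-KO and 982 in Fmr1 WT cerebellum. The part of these lists in this order was not tested.

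Within cerebellum, Slc17a6 varied more from mouse to mouse than the other members. It was 281, 451, 507, 327 and 466 in Fmr1-KO mice 1 to 5 and 708.5, 441, 403.5, 295 and 485.5 in Fmr1 WT mice 1 to 5. It was 360.1, 799 and 1022 in Tsc2+/- mice 1 to 3 and 529.8, 340.1 and 1192 in Tsc2 WT mice 1 to 3. The 4 highest values came from 3 of the 4 groups, 2 of them from Tsc2+/- mice, and each of those groups also held a value under 400.

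Slc6a5, the glycine transporter of glycinergic neurons, was high in the same cerebella. It was 2655 in Tsc2 WT mouse 3, 2633 in Tsc2+/- mouse 3, 1629 in Fmr1 WT mouse 1 and 1346 in Tsc2+/- mouse 2, and did not exceed 1298 on any other array. Tsc2 WT mouse 3 also had 637 for Tph2, the serotonin-synthesis enzyme of raphe neurons, and 250 for the serotonin transporter Slc6a4, where the other 15 arrays did not exceed 106 and 52.9. Over the whole list of 12 measured markers of cerebellar nuclei, brainstem and midbrain, the summed intensity ran from 3134 to 4299 in Fmr1-KO, 3208 to 3873 in Fmr1 WT, 3092 to 3395 in Tsc2+/- and 2425 to 4323 in Tsc2 WT cerebellum. Of these 12, from 2 in Fmr1-KO to 4 in each other group were above background on every array. Their sum was 4323 in Tsc2 WT mouse 3 but 3300, 3395 and 3545 in Tsc2+/- mouse 3, Tsc2+/- mouse 2 and Fmr1 WT mouse 1. Fmr1-KO mouse 1, with the lowest Slc17a6, had 4299. That was the array that stood apart, with a background of 577, so its sum is not comparable with the others. Blood had higher sums, with group means from 4316 to 8000, so the list is not particular to brainstem. Slc6a5 is also 1 of the 7 interneuron markers, so their sum contains it and is not a separate measure. The interneuron sum was 17230 to 18570 in the mice of the Tsc2 experiment with high Slc6a5. Fmr1 WT mouse 1 had 14520, below the 15760 of Fmr1 WT mouse 5. The summed intensity of the oligodendrocyte markers was also highest in those 4 cerebella, at 56660 in Tsc2 WT mouse 3, 49510 in Tsc2+/- mouse 3, 45590 in Tsc2+/- mouse 2 and 44060 in Fmr1 WT mouse 1, and did not exceed 39710 in the others. The part of these markers in the spread of Slc17a6 was not tested.

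**Figure D4:**
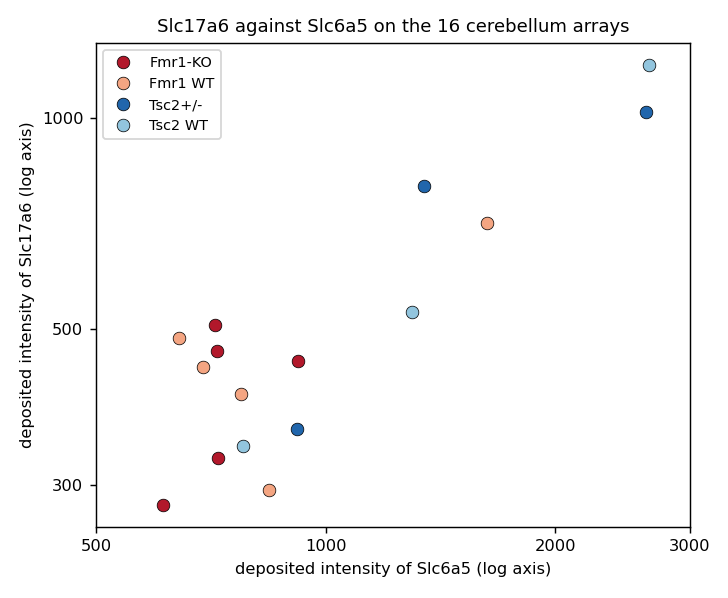
Deposited intensity of Slc17a6 against that of Slc6a5 (both log axes) on the 16 cerebellum arrays, 1 point per array, coloured by group. The 4 arrays with the highest Slc6a5, from 1346 to 2655, are also the 4 with the highest Slc17a6.

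The genes whose log2 intensity followed each member most closely over the 15 cerebellum arrays other than that of Fmr1-KO mouse 1 are given as a description, with Pearson's r and no test. The arrays span 4 groups and both strain backgrounds, which all points share. For Slc17a6 these were Rasgrf2 (r = 0.98), Meis2 (0.97) and Kcnh5 (0.97), with almost the same values over all 16 arrays (0.97, 0.97 and 0.96). Of these Rasgrf2 was above background on only 4 of the 15 arrays, Kcnh5 on 13 and Meis2 on 14. For Gad1 they were Zswim5 (0.92), Unc13c (0.90) and Plpp3 (0.90), and for Gad2 Btbd11 (0.96), Zfp369 (0.95) and Gnal (0.95). For Slc32a1 they were Usp20 (0.94), Pnpla6 (0.93) and Ap1b1 (0.92), and for Abat Disp2, Rell2 and Kcnab2 (all 0.94).

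For Slc17a7 they were Sptb (0.95), Atg4d (0.92) and Fads6 (0.92), and for Slc1a2 Npc1 (0.95), Adgrl2 (0.95) and Ids (0.94). Glul had the weakest, with Ttc30a1 (0.79), Ptbp3 (0.77) and Prkcz (0.77), and Ttc30a1, which was below background on all 15 arrays, came to -0.068 when all 16 were used. Among the members themselves, Abat and Slc1a2 had the highest r, 0.92 over the 15 arrays and 0.84 over all 16. Slc17a7 stood aside from the others, with r from -0.18 (with Gad2) to 0.34 (with Slc32a1) over the 15 arrays, although its r with Glul went from -0.072 to 0.58 when the array of Fmr1-KO mouse 1 was added.

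Differences between members on the same array were compared across groups as values only. In cerebellum, the log2 intensity of Slc17a7 less that of Slc32a1 was 0.75 ± 0.21 (SD, n = 5) in Fmr1-KO, 0.76 ± 0.24 (SD, n = 5) in Fmr1 WT, 0.66 ± 0.20 (SD, n = 3) in Tsc2+/- and 0.81 ± 0.25 (SD, n = 3) in Tsc2 WT mice. Gad1 less Gad2 was 1.48 ± 0.17 (SD, n = 5) in Fmr1-KO, 1.37 ± 0.21 (SD, n = 5) in Fmr1 WT, 1.33 ± 0.15 (SD, n = 3) in Tsc2+/- and 1.23 ± 0.080 (SD, n = 3) in Tsc2 WT mice. Glul less Slc1a2 lay between 0.78 and 0.97 in the group means, and Slc17a6 less Slc17a7 between -4.05 and -3.42. Without the array that stood apart, the Fmr1-KO means were 0.84 ± 0.087 (SD, n = 4) for Slc17a7 less Slc32a1, 1.54 ± 0.12 for Gad1 less Gad2, 1.03 ± 0.061 for Glul less Slc1a2 and -4.06 ± 0.29 for Slc17a6 less Slc17a7. With all arrays, each shift between mutant and WT means was smaller than the SD of both groups, apart from that of Gad1 less Gad2 in the Tsc2 experiment, which exceeded the WT SD of 0.080 but not the mutant SD of 0.15. Without that array, the shifts of Gad1 less Gad2 and of Glul less Slc1a2 in the Fmr1 experiment exceeded the Fmr1-KO SD but not the WT SD.

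Of 30 further genes of the pathway (transporters of glutamate, GABA, glycine and glutamine, and enzymes of glutamate and GABA metabolism), 27 were analysed here. In cerebellum against blood 22 of 27 rose and 3 fell in the Fmr1 experiment (limma, adjusted p under 0.05), beside 51.8% of all probe sets called higher and 20% called lower. In the Tsc2 experiment 20 rose and 3 fell, beside 31% and 26.4% of all. Of the 27, 11 were above background on every blood array and 17 on every cerebellum array. Slc1a3, the glutamate transporter GLAST of Bergmann glia, had group means from 6196 to 6829 in cerebellum and from 24.9 to 31.3 in blood, where it was below background, so that cerebellum was at least 30.3-fold higher in each group. Slc6a11, a GABA transporter of glia, had means from 61550 to 116800 in cerebellum and from 334 to 454.6 in blood. Aldh5a1, the last enzyme of GABA breakdown, and Slc1a1, the neuronal glutamate transporter EAAC1, were below background on all 16 blood arrays, so their rise has only a bound and no rank. For Aldh5a1 it was at least 2.93-fold in Fmr1-KO, 3.38-fold in Fmr1 WT, 4.16-fold in Tsc2+/- and 4.39-fold in Tsc2 WT mice, and for Slc1a1 at least 3.25-fold, 3.65-fold, 4.57-fold and 5.11-fold in the same groups. The Fmr1-KO bounds of both genes include the array that stood apart.

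The 3 called lower were the same in both experiments. The glutamine transporter Slc38a5 had group means from 2052 to 3982 in blood and was above background on 3 of the 16 cerebellum arrays, so that blood was at least 11.4-fold higher in each group. The aldehyde dehydrogenase Aldh9a1 fell by 0.30 in the Fmr1 and by 0.45 in the Tsc2 experiment on the log2 scale. Slc17a8, which encodes VGLUT3, was near background in both tissues, with group means from 152 to 188 in cerebellum and from 187 to 210 in blood, and was above it on 3 cerebellum and 8 blood arrays, so its call describes no measured change. In every genotype comparison and interaction, 0 of the 27 passed at an adjusted p under 0.05 (limma), and from 0 to 2 had an unadjusted p under 0.05.

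Between the WT groups in blood 0 of the 27 passed at an adjusted p under 0.05 (limma). At an unadjusted p under 0.01 there were 4, or 14.8%, near the 12% of all probe sets, and at an unadjusted p under 0.05 there were 9, beside 29% of all. The glycine transporter Slc6a9 was 955 ± 249 (SD, n = 3) in Tsc2 WT and 2817 ± 505 (SD, n = 5) in Fmr1 WT blood (limma adjusted p = 0.058). The glutamine transporter Slc38a1 was 1877 ± 514 (SD, n = 3) and 997 ± 101 (SD, n = 5), with a limma adjusted p of 0.068. The aspartate aminotransferases Got1 and Got2 were higher in Tsc2 WT blood, with log2 differences of 1.01 and 0.89 (limma adjusted p = 0.068 and 0.073). The values of the WT groups did not overlap for any of these 4 genes, as for 24% of all probe sets, and the blood cell markers given beside Glul moved with them too. Over both tissues Got1, Got2 and Pdxk, the kinase that makes the cofactor of the decarboxylases, had an unadjusted p under 0.01, with log2 differences of 0.57, 0.53 and 0.37 (limma adjusted p = 0.11, 0.13 and 0.13). These 3 are 11.1% of the 27, beside 7.89% of all probe sets.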

How the data were processed

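Per the labels and the study's methods, total RNA of blood and cerebellum of 16 mice was hybridised to 32 arrays. The authors normalized all arrays together at the probe level by quantiles and summarised probe sets with PLIER (Affymetrix Power Tools), and deposited intensity values on the linear scale, from 0.0002 to 314441. Probe sets were named through the platform annotation (21789 with 1 symbol, 1621 with several, 12146 with none).

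From these values log2 was taken with no offset. limma 3.58.1 (R 4.3.3; lmFit, eBayes, Benjamini-Hochberg adjustment) was run on all 35556 probe sets, with both tissue and genotype as terms where the tissues were combined and with genotype as the term in each tissue. For single genes the mouse labels were permuted exactly within a tissue, two-sided. Under 16, where log2 exaggerates small differences, lay 8.35% of blood and 4.06% of cerebellum values. Depth does not apply to arrays, and their number limits the precision. The scripts were tested on simulated data. Figures were drawn with matplotlib 3.10.9.

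Groups came from the labels, which number the mice without saying whether WT mice were littermates of a given mutant. The mice are separate animals. The members and gene lists were chosen with earlier results of these data known. Named were the 8 members, Fmr1 and Tsc2, for each member the 3 genes with the highest correlation, and from the pathway list the 3 largest rises and falls between tissues and each gene at an unadjusted p under 0.01 elsewhere. Markers of Purkinje cells, interneurons, granule cells, astrocytes with Bergmann glia, oligodendrocytes, cerebellar nuclei with brainstem, forebrain, choroid plexus, microglia, erythroid cells, leukocytes and platelets were summed per array. Blood and cerebellum are paired by mouse, since both came from the same animal, although deviations of a mouse's arrays correlated at only -0.13 to 0.15 (16 pairs). Mutant and WT mice of the same number correlated at -0.20 to 0.46, over 0.1 in 4 of 16 pairs, so numbers were not taken as pairs. The alternatives were an offset of 16, centred or quantile normalized arrays, a filter on dim probe sets, probe sets with 1 symbol, no moderation, array weights, 1 fit of all arrays, the mean over probe sets, blocks, the methods' t-test, another background percentile and each mouse left out in turn.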

Additional observations from a re-analysis of the deposited data

Results flagged for a closer look

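In groups of 5, a value far from the rest of its group was found in 4 of the 32 pairs of gene and group tested, where chance alone gives about 1 in 20. Gad1 in blood was 414 in Fmr1 WT mouse 5, and the nearest of the other WT mice had 135. Gad2 in cerebellum was 1917 in Fmr1 WT mouse 1, and the nearest had 1206. Slc17a7 in blood was 68.5 in Fmr1-KO mouse 3, and the nearest had 9.08, with all of these below background. Slc17a7 in cerebellum was 4537 in Fmr1-KO mouse 1, on the array that stood apart, and the nearest had 6826.

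Fmr1 WT mouse 1, with the high Gad2, also had the highest Gad1 (3848), Abat (4999), Slc1a2 (4955) and Slc17a6 (708.5) among the 5 Fmr1 WT cerebella. Its Slc32a1 (4342) and Glul (8382) were the highest there too, whereas its Slc17a7 (5681) was the lowest. Its summed markers of oligodendrocytes (44060) and granule cells (54720) were also the highest of that group, where the other 4 mice had 30150 to 33010 and 37770 to 45950. So were those of Purkinje cells (36440), astrocytes with Bergmann glia (48810), forebrain (15950) and microglia (1157). Those of interneurons (14520), cerebellar nuclei with brainstem (3545) and choroid plexus (15110) were not. The part of these lists in the result was not tested.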

How the results depend on the processing

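All 311 values of single genes in the tissue comparisons kept their direction and their call under the alternatives run, and no genotype difference of a member passed the adjusted test under any of them. Since those differences lie near 0, 39 of 342 genotype values and 12 of 171 values between WT groups changed sign, none of them called, and the cause was not tested. The number of arrays and, in blood, signal over background limit what can be seen.

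With the replicate block (the mouse in the tissue comparisons, the number elsewhere), 8 of 8 genes were called between tissues and 0 in every other comparison. The block changed no call. Between the WT groups in blood, 1 gene, Glul, was called with 16 added before log2, with dim probe sets left out, with array weights and in 1 fit of all arrays, at log2 differences of -0.68, -0.68, -0.54 and -0.68. With the median of the olfactory receptor probe sets as the background level, 3 genes were above it on every blood array, in place of 1.

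Of all probe sets, 47 were called between the WT groups in blood, and 0 to 10738 under the alternatives. Over both tissues 17 were called, and 0 to 3853 under the alternatives.

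In Fmr1-KO cerebellum the log2 difference of Slc32a1 was -0.0482 with centred arrays. With quantile normalized arrays Slc17a7 was at 0.0361 and Slc1a2 at 0.0239. With array weights Abat was at 0.0249, Slc17a7 at 0.0438, Glul at 0.0467 and Slc1a2 at 0.00805, and Slc17a7 was at 0.00414 by the methods' t-test. In Tsc2+/- blood Glul was at -0.0372 with array weights. In Tsc2+/- cerebellum Gad2 was at 0.0146 and Slc32a1 at 0.0138 with centred arrays, and Abat was at -0.0570 with quantile normalized arrays, at -0.00451 with array weights and at -0.00100 by the methods' t-test. Between WT cerebella, Gad1 was at 0.0971 with centred arrays and 0.0871 with array weights, and Glul at 0.0985 with centred arrays and 0.0402 with the mean of its probe sets.

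With each mouse left out in turn, the log2 differences in Fmr1-KO cerebellum ranged from -0.0598 to 0.128 for Slc17a7 and from -0.138 to 0.0411 for Glul (both highest without Fmr1-KO mouse 1), from -0.0364 to 0.0541 for Slc32a1 (lowest without Fmr1 WT mouse 3) and from -0.0738 to 0.0600 for Slc1a2 (highest without Fmr1 WT mouse 1). In Tsc2+/- blood Glul ranged from -0.0854 to 0.382 (lowest without Tsc2+/- mouse 3). In Tsc2+/- cerebellum the range was -0.0842 to 0.0262 for Gad2, -0.156 to 0.0982 for Slc32a1, -0.0618 to 0.085 for Abat, -0.257 to 0.648 for Slc17a6 (lowest without Tsc2 WT mouse 2) and -6.20e-05 to 0.165 for Slc1a2 (lowest without Tsc2+/- mouse 3). Between WT cerebella it was -0.0868 to 0.0724 for Gad1, -0.0475 to 0.0293 for Glul and -0.0778 to 0.827 for Slc17a6 (lowest without Tsc2 WT mouse 3).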

Other observations

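Choroid plexus RNA, which was not part of any comparison of the 8 genes, varied strongly among the cerebella of the Tsc2 experiment. The summed intensity of 5 choroid plexus markers was 1041 in Tsc2+/- mouse 1 and 877 in Tsc2 WT mouse 2, and from 7424 to 16280 in the other 4 mice, where the Fmr1 experiment ran from 14620 to 20110. Ttr, the main transcript of the choroid plexus, was 391 in Tsc2+/- mouse 1 and 148 in Tsc2 WT mouse 2. Those cerebella also held the lowest Slc17a6 of their groups, 360.1 and 340.1. In the Fmr1 experiment, where all these sums were high, Slc17a6 ran from 281 to 708.5. It was 295 in Fmr1 WT mouse 4, with a choroid plexus sum of 16500. A link between the 2 was not tested.

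Platelet RNA in blood was low in Tsc2 WT mouse 3, with a summed intensity of 1633 over 4 markers, and in Tsc2+/- mouse 2 with 2306, against 21110 to 32840 in the other 4 mice of the Tsc2 experiment. Glul in those blood samples was 2227, the lowest of all 16, and 2728. Among the other 4 mice, Glul was 2255 in Tsc2+/- mouse 1 (platelet sum 21110) and 2721 in Tsc2 WT mouse 1 (32840). It was higher in Tsc2 WT mouse 2, at 3008 (21820), and in Tsc2+/- mouse 3, at 4311 (25390). The part of platelet RNA in Glul was not tested.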
